A study of Arabidopsis thaliana with 18 samples.

Results

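Mock-treated rosette leaves were compared with untreated rosette leaves of Arabidopsis thaliana Col-0 by sequencing total small RNA, with no immunoprecipitation of an ARGONAUTE protein. The comparison uses 6 of the 18 libraries of the study, 3 mock and 3 untreated, each from a separate biological replicate and sequenced in 2 runs that were summed. All plants were of the Col-0 ecotype, with no mutation or transgene named in the labels, about 5 to 6 weeks old, and grown on soil at high humidity and 22 °C with 8 h of light a day. A further group of the study, given here only side by side, was inoculated with the leaf-spot fungus Alternaria brassicicola (1000000 spores per ml, in 0.01% of the wetting agent Silwet L-77) and harvested on day 3. The labels give neither the composition of the mock treatment nor a harvest day for mock or untreated plants. The libraries were read against known plant miRNAs, so every family of the deposited table was a member. Of its 101 families, 81 were listed in at least 1 of the 6 libraries and 77 passed the filter on low read numbers. Of its 476 distinct sequences, 350 were listed and 296 passed. The filter also counted the total libraries of the Alternaria group. No family in the table marks a mock treatment, so the group labels could not be checked against a marker.

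MicroRNAs are short RNAs that the enzyme DICER-LIKE1 cuts from hairpin transcripts of MIR genes. They guide an ARGONAUTE protein, mostly ARGONAUTE1 (AGO1) in Arabidopsis, to messenger RNAs that pair with them almost along their whole length, and those messages are cut or translated less. In leaves, conserved families set leaf form and developmental phase, and others adjust the response to auxin, the supply of phosphate, sulfate and copper, and defence. A table of reads matched to known plant miRNA names can also hold pieces of longer RNAs, such as ribosomal RNA (rRNA) and transfer RNA (tRNA), where such a piece was once entered under a miRNA name.

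The sequences that carry the results are printed first. They are given 5′ to 3′ as in the deposited table, with T for U, and capitals mark bases 2 to 8, the stretch called the seed. The first set holds the families of clear MIR origin that the comparison turns on. It starts with the family that was called lower in mock leaves per miRNA read, and then gives those that were higher per genome-matched read.

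miR169g-3p: gCAAGTTGaccttggctctgt
miR169f-3p: gCAAGTTGaccttggctctgc
miR843: tTTAGGTCgagcttcattgga
miR168a and b: tCGCTTGGtgcaggtcgggaa
miR403: tTAGATTCacgcacaaactcg
miR166a to g: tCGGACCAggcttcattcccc
miR165a and b: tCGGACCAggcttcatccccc
miR164a and b: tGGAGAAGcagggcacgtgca
miR164c: tGGAGAAGcagggcacgtgcg

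The miR169g-3p sequence lies at chr1:20039499-20039519 (minus strand) in the annotated MIR169d gene and is encoded a second time in MIR169g, and miR843 lies at chr3:17742147-17742167 (plus strand) in MIR843. The miR168 sequence lies at chr4:10578652-10578672 (plus strand) in MIR168a and is encoded a second time in MIR168b. The miR403 sequence lies at chr2:19415154-19415174 (plus strand) in MIR403. All coordinates are on TAIR10. The miR169g-3p and miR169f-3p sequences share their seed and differ only in their last base, and so do the 2 miR164 sequences. The miR165 and miR166 sequences share a seed and differ at 1 base further on.

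The second set shows sequences that the table lists under miRNA names and that are stretches of other annotated RNAs. Families of this kind made up most of those called lower in mock leaves per miRNA read.

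miR4995: cAGTGGCTtggttaaggg
miR6173: aGCCGTAAacgatggatact
miR5139 and miR8155: aACCTGGCtctgatacca
miR8175: gATCCCCGgcaacggcgcca
miR6478: cCGACCTTagctcagttggt
miR6300: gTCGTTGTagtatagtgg

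The miR4995 sequence lies at chrPt:105295-105312 (plus strand) inside the plastid gene of the large-subunit (23S) rRNA, and the miR6173 sequence at chrPt:101767-101786 (plus strand) inside that of the small-subunit (16S) rRNA, where Pt is the plastid genome. Without its last 3 bases, CCA, the sequence shared by miR5139 and miR8155 is the 3′ end of 6 annotated tRNA-Met genes, and the miR8175 sequence is the 3′ end of 22 annotated tRNA-Asp genes. CCA is the triplet that plants add to the 3′ end of every tRNA after transcription. Only miR8175 of these also matches an annotated MIR gene, at chr2:3740938-3740957 (plus strand). The miR6478 sequence lies inside a tRNA-Tyr gene at chr1:18308903-18308922 (plus strand) and has 64 matches in the genome, and that of miR6300 lies inside a tRNA-Asp gene at chr1:877648-877665 (plus strand) and has 24.

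The share of genome-matched reads that belonged to a listed miRNA was 5.33%, 7.06% and 13.2% in the mock libraries, against 2.76%, 2.53% and 2.61% in the untreated libraries. Every mock library was above every untreated one, and the mock libraries differed among themselves far more than the untreated ones. The means were 8.54% ± 4.15 in mock and 2.63% ± 0.114 in untreated leaves (SD, n = 3 each), a 3.24-fold difference of 5.91 percentage points (3.56 without mock library 3), with an exact two-sided permutation p of 0.1, the smallest that 3 against 3 libraries can give. The miRNA reads themselves numbered 1419447, 1166166 and 3034481 in mock and 1825076, 753927 and 774674 in untreated libraries, and these ranges overlapped. The genome-matched reads did not overlap, at 26653636, 16507458 and 22938135 in mock and 66209731, 29772154 and 29713149 in untreated libraries (exact permutation p = 0.1).

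Other properties of the libraries moved with the share. Of the reads that reached it, the authors' filter on abundance kept 76.9%, 75.3% and 67.9% in mock and 85.3%, 84.2% and 87.5% in untreated libraries. Distinct genome-matched sequences were counted in each run separately. Such a sequence was read on average 199, 158 and 140 times a run in mock libraries, against 369, 266 and 342 times in untreated libraries. Mock libraries were thus shallower and lost more reads as rare sequences, and the part of this in the higher miRNA share was not tested. In RNA from whole leaves, fewer cells of a type and less RNA per cell cannot be told apart, nor can more miRNA and less of the other small RNA.

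**Figure D1:**
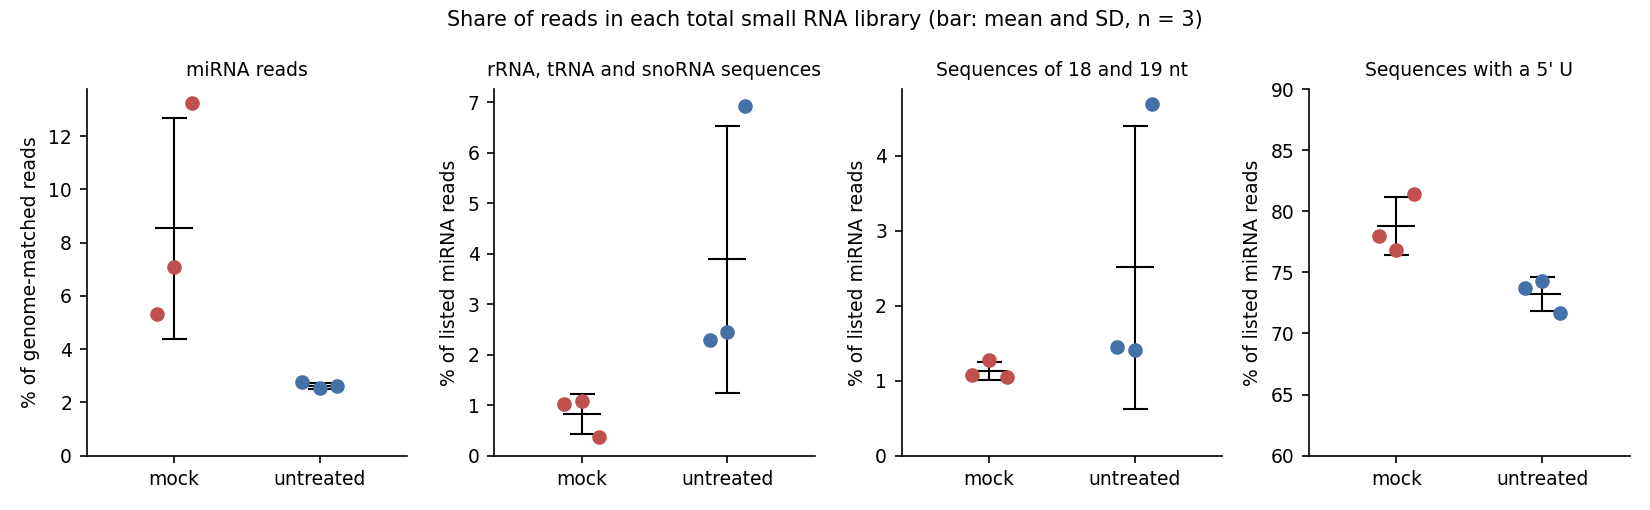
Each panel plots 1 measure for the 3 mock (left) and 3 untreated (right) libraries, with the mean as a bar and the SD as an error line: miRNA reads in percent of genome-matched reads, and reads of rRNA, tRNA and snoRNA sequences, of sequences 18 or 19 nt long and of sequences that start with U, each in percent of listed miRNA reads. The miRNA share lies between 5.33% and 13.2% in mock and near 2.6% in untreated libraries, and untreated library 3 stands apart at 6.93% and 4.69% in the second and the third panel.

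Because that share differed, each family was compared on 2 scales. The first was counts per 1000000 miRNA reads (CPM, with TMM factors), which asks whether a family took a different share of the miRNAs. The second was reads per 1000000 genome-matched reads (RPM). It asks whether a family took a different share of the reads that passed the filters on length, abundance and genome match. It is not a share of all small RNA, because the abundance filter kept unlike parts of the 2 groups. On the miRNA scale 0 of 77 families (0%) were higher in mock leaves and 4 (5.19%) were lower at an adjusted p under 0.05 (limma, Benjamini-Hochberg over the 77 families), while 15 (19.5%) had an unadjusted p under 0.05. With limma-voom the counts were 0 higher and 3 lower, and when 1 library was left out between 0 and 8 families were called, with 8 without untreated library 1, 1 without untreated library 2, 0 without untreated library 3 and 1 without mock library 3. On the genome scale 47 families (61%) were higher in mock leaves and 1 (1.3%) was lower, with 49 (63.6%) at an unadjusted p under 0.05. The median log2 change over the 77 families was 0.25 on the miRNA scale and 1.40 on the genome scale. A family with the median change thus kept nearly its share of the miRNAs and gained against the genome-matched reads.

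Values without any model gave a similar count on the genome scale and more families on the miRNA scale. The 3 mock values were all above the 3 untreated values in 10 families (13%) on the miRNA scale and in 48 (62.3%) on the genome scale, and all below in 9 (11.7%) and 1 (1.3%). The genome-scale values carry the library-wide share.

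**Figure D2:**
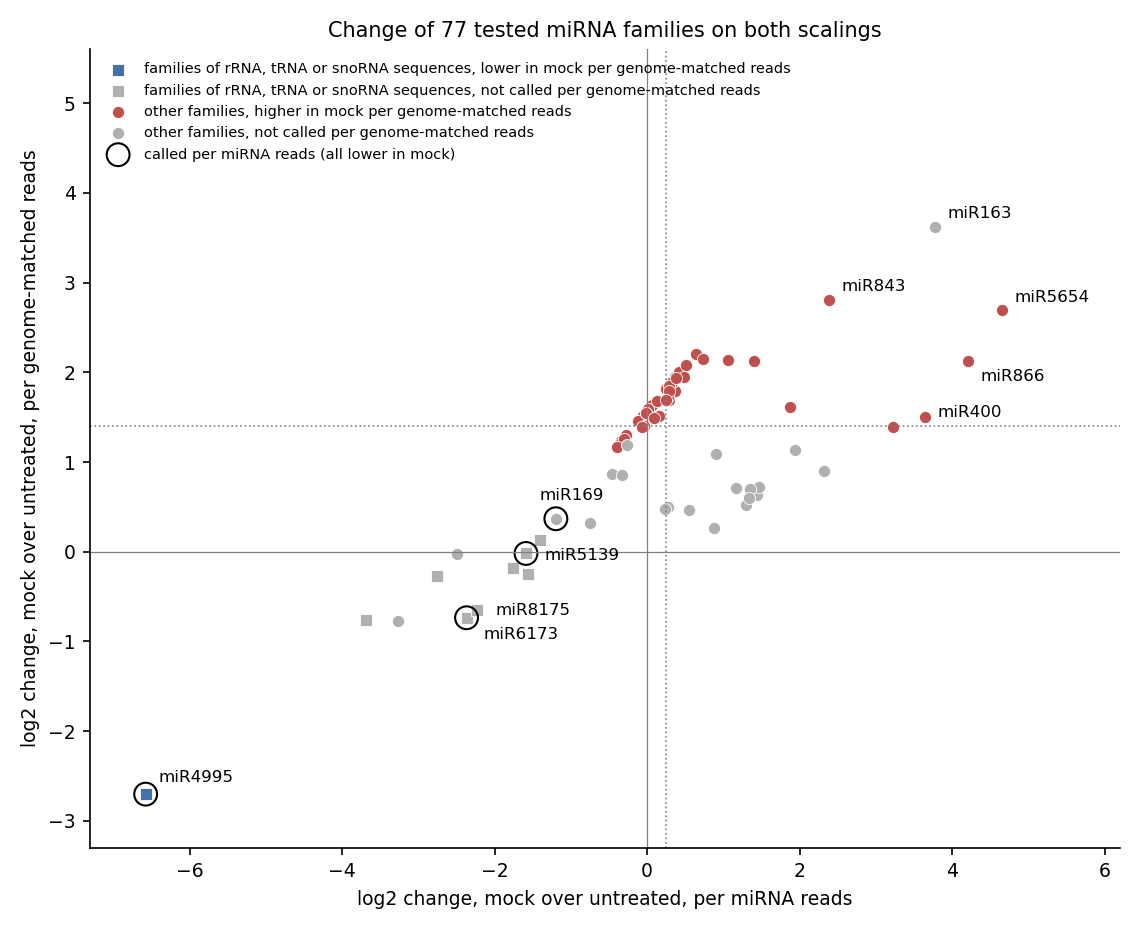
Each point is 1 of the 77 families, with its log2 change of mock over untreated leaves on the miRNA scale (x axis) and on the genome scale (y axis); dotted lines are the medians (0.25 and 1.40), squares are families of rRNA, tRNA or snoRNA sequences and rings are the 4 families called on the x axis. The squares lie to the left and near or below 0 on the y axis, and most circles lie near the crossing of the dotted lines.

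The miR169 family targets messages of NF-YA transcription factors and responds to nitrogen supply and drought. It was the only family of clear MIR origin called lower in mock leaves on the miRNA scale. It had 677, 548 and 470.1 CPM in the mock libraries, against 1595, 956 and 1378 CPM in the untreated libraries. Every mock library was below every untreated library. The means were 565 ± 105 CPM in mock and 1309.6 ± 325 CPM in untreated leaves (SD, n = 3 each), a log2 change of -1.195 ± 0.26 (SE) with an adjusted p of 0.0170 by limma. Per genome-matched read it had 34.3, 31.9 and 67.2 RPM in mock leaves and 39.0, 21.9 and 39.2 RPM in untreated leaves, which overlapped, with a log2 change of 0.37 (limma, adjusted p = 0.552). So on the genome scale the direction was the other way, below the median of all families and not past the threshold. The call on the miRNA scale was lost without mock library 3 (adjusted p = 0.160) and without untreated library 3 (adjusted p = 0.0965), within a range of 0.00607 to 0.160 over all alternatives by limma.

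The most read miR169 sequences came from the 3p arm, the strand opposite the one that is usually taken as the guide in this family. The miR169g-3p sequence printed above made up 46.6%, 44.1% and 44.3% of the family's reads in mock and 32.1%, 42.2% and 44.9% in untreated libraries. The miR169f-3p sequence made up 30.3%, 32.1% and 33.3% in mock and 36.6%, 41.6% and 35.8% in untreated libraries. The miR169f-3p shares did not overlap, and those of miR169g-3p did. Taken as a single sequence, miR169f-3p had a log2 change of -1.49 per miRNA read with an adjusted p of 0.0698 (limma over 296 sequences), so no single miR169 sequence passed the test.

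The other 3 families called lower on the miRNA scale were rRNA and tRNA sequences. The miR4995 family, from plastid 23S rRNA, had 51.1, 0 and 0 CPM in the mock libraries, against 311, 343 and 419.9 CPM in the untreated libraries. It was listed in 1 of 3 mock libraries and in all 3 untreated libraries. Its log2 change was -6.58 ± 1.502 (limma, adjusted p = 0.0173), a size that depends on the pseudocount because 2 mock values are listed at 0. The table lists a sequence only from 15 reads a run, so a sequence at 0 can still hold up to 14 reads in each of the 2 runs. Per genome-matched read miR4995 had 2.59, 0 and 0 RPM in mock leaves and 7.61, 7.86 and 11.9 RPM in untreated leaves. It was the only family called lower on both scales, with a genome-scale log2 change of -2.70 (limma, adjusted p = 0.000385). Setting every listed 0 of it to 14 reads a run turned that value to 0.14, so that fall depends on how listed zeros are read.

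The miR6173 family, from plastid 16S rRNA, had 249.7, 108 and 49.7 CPM in the mock libraries, against 443, 537 and 797 CPM in the untreated libraries. Every mock value was below every untreated value. Its log2 change was -2.37 ± 0.48 (limma, adjusted p = 0.0170). Per genome-matched read it had 12.6, 6.30 and 7.11 RPM in mock leaves and 10.8, 12.3 and 22.7 RPM in untreated leaves, a log2 change of -0.74 that did not pass the test (limma, adjusted p = 0.278).

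The miR5139 family, the 3′ end of tRNA-Met with its CCA, had 284, 135 and 196 CPM in the mock libraries, against 413, 406 and 1236 CPM in the untreated libraries. Here too the groups did not overlap, and untreated library 3 was about 3 times the other untreated libraries. Its log2 change was -1.59 ± 0.40 (limma, adjusted p = 0.0280), and per genome-matched read it was -0.02 (limma, adjusted p = 0.974). Leaving out untreated library 3 ended all 4 calls, where the adjusted p was 0.0965 for miR169, miR6173 and miR4995 and 0.118 for miR5139 by limma. The call for miR5139 held in the fewest alternatives of the 4, and was also lost with median-of-ratios factors, library totals alone, limma-voom, run 1 only and the 6 libraries only, with an adjusted p of 0.0283 to 0.160 over its alternatives. The calls for miR6173 and miR4995 were also lost without untreated library 2 (0.0625 and 0.0667) and mock library 3 (0.0560 and 0.135), and that for miR5139 without untreated library 2 (0.0625), mock library 2 (0.143) and mock library 3 (0.160), each by limma. For miR4995 the adjusted p without mock library 2 was 0.0636. None of the 4 held when listed zeros were set to 14 reads a run, or when limma was fitted without its trend and robust options.

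Counting every family whose sequences lie in other annotated RNAs gave 9 families. A class of this kind was drawn after the sequences had been seen. They are miR4995 and miR5368 (plastid 23S rRNA), miR6173 (plastid 16S rRNA), miR5139 and miR8155 (tRNA-Met 3′ end), miR8175 (tRNA-Asp 3′ end), miR6478 and miR6300 (inside tRNA-Tyr and tRNA-Asp) and miR3630 (a small nucleolar RNA, snoRNA). On the miRNA scale all 9 had a negative log2 change, 3 were called lower, and in 7 every mock value was below every untreated value. Their median was -2.23, with a range of -6.58 to -1.41, beside a median of 0.28 over the other 68 families. Of those 68, 1 was called lower, 23 had a negative change, and in 2 every mock value was below every untreated value. Over all 77 families, 4 (5.19%) were called lower and 9 (11.7%) had every mock value below. On the genome scale the median of the 9 rRNA, tRNA and snoRNA families was -0.27, with 0 called higher and 1 lower. The other 68 had a median of 1.51 and 47 called higher. miR5139 and miR8155 share a sequence that makes up all of miR8155 and 73.1% of miR5139, so they are not independent.

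The most abundant of them, miR8175, had 8158, 11529 and 2715 CPM in the mock libraries, against 22109.5, 21404 and 55598 CPM in the untreated libraries. The groups did not overlap, and untreated library 3 was more than 2 times the next library. The log2 change of -2.23 did not pass the test (limma, adjusted p = 0.174), nor did that of -0.65 per genome-matched read (0.278). The miR6478 family had 1965, 1298 and 496 CPM in the mock libraries, against 2291, 4284 and 4959.9 CPM in the untreated libraries, again with no overlap (log2 change -1.75, limma adjusted p = 0.114), and its change per genome-matched read was -0.18 (limma, adjusted p = 0.761). The 2 smallest, miR6300 and miR3630, had at most 67.4 and 48.5 CPM in any of the 6 libraries.

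Summed over the 28 rRNA, tRNA and snoRNA sequences, their share of the listed reads was 1.02%, 1.08% and 0.377% in the mock libraries, against 2.28%, 2.44% and 6.93% in the untreated libraries. The shares did not overlap, with means of 0.827% ± 0.390 in mock and 3.89% ± 2.64 in untreated leaves (SD, n = 3 each; exact two-sided permutation p = 0.1, adjusted 0.15 over 12 such measures). Without untreated library 3 the difference was -1.54 percentage points in place of -3.06, a value added after that library was seen to stand apart. Per genome-matched read, the same sequences gave 545, 763 and 499 RPM in mock and 629.6, 619 and 1808 RPM in untreated libraries, which overlapped (exact permutation p = 0.5). All the remaining listed sequences gave 52710.4, 69882 and 131791 RPM in mock, against 26936, 24704 and 24264 RPM in untreated libraries, a 3.35-fold difference with no overlap (exact permutation p = 0.1). Per genome-matched read, then, the rRNA, tRNA and snoRNA sequences overlapped between the groups and the remaining sequences did not, and the share of the listed reads is the ratio of these sums.

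As listed, the sum over the 17 plastid rRNA sequences was below every untreated library in every mock library per genome-matched read. They gave 17.7, 9.21 and 9.85 RPM in mock, against 21.5, 20.7 and 47.6 RPM in untreated libraries (exact permutation p = 0.1, adjusted 0.15 over the 12 measures). Of the 17 sequences, 7, 3 and 4 were listed in the mock libraries and 14, 11 and 15 in the untreated libraries. With each listed 0 set to 14 reads a run, an alternative added after the data were seen, the sums were 29.3, 32.95 and 26.3 RPM in mock and 22.96, 28.2 and 51.4 RPM in untreated libraries, which overlapped (exact permutation p = 0.9). The tRNA sequences gave 527, 754 and 489 RPM in mock and 607, 598 and 1759 RPM in untreated libraries, which overlapped.

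**Figure D3:**
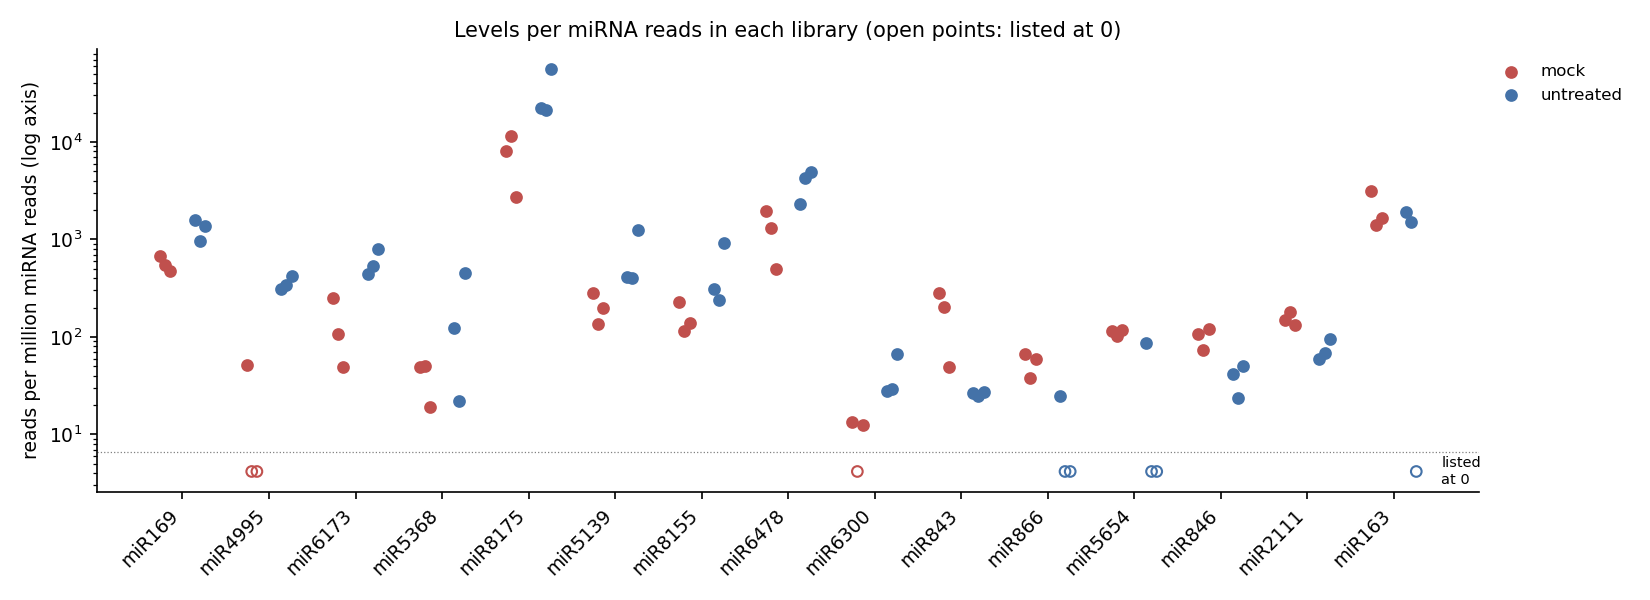
CPM on a log axis of 15 families in the 3 mock and 3 untreated libraries, 1 point a library; open points are listed at 0 and are drawn at the lower edge. miR169 and the rRNA and tRNA families (miR4995 to miR6300) are lower in mock leaves, apart from miR5368, whose groups overlap, and miR843, miR866, miR5654, miR846 and miR2111 are higher, where miR5654 and miR866 are listed at 0 in 2 untreated libraries each.

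No family passed the test in the other direction on the miRNA scale, and 3 families lay just outside the threshold at an adjusted p of 0.05003 by limma. All 3 passed with a pseudocount of 5 and in a fit of all 18 libraries, where 5 families were called higher, and higher calls also appeared without untreated library 1 (4), mock library 2 (1) or mock library 3 (1). The first was miR843, with 284, 201 and 49.7 CPM in the mock libraries, against 26.5, 24.9 and 27.2 CPM in the untreated libraries. All 3 mock values were above all untreated values, and the mock libraries spread over a wide range (log2 change 2.39 ± 0.69). Per genome-matched read it had 14.4, 11.7 and 7.11 RPM in mock leaves and 0.649, 0.571 and 0.774 RPM in untreated leaves. The log2 change of 2.81 ± 0.65 passed the test (limma, adjusted p = 0.000326). As listed, it was the largest of any family called on that scale. The miR843 values of untreated libraries 2 and 3 lie below the 37.1 and 36.1 CPM of a sequence that can go unlisted there. The size of both changes, and the gap to mock library 3, are therefore not known.

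The second was miR5654, with 115, 103 and 118 CPM in the mock libraries, against 87.7, 0 and 0 CPM in the untreated libraries (log2 change 4.66). Its genome-scale change of 2.69 also passed (limma, adjusted p = 0.000385). The third was miR866, with 67.4, 37.5 and 60.1 CPM in the mock libraries, against 24.7, 0 and 0 CPM in the untreated libraries (log2 change 4.20), and its genome-scale change of 2.13 passed (limma, adjusted p = 0.00419). For miR5654 and miR866, untreated libraries 2 and 3 are listed at 0, where up to 37.1 and 36.1 CPM of a sequence can go unlisted, so the size of these changes is not known. The miR866 level of mock library 2 is near that limit.

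Phosphate-responsive miRNAs were above untreated leaves in every library. Of the 4 families on the list 3 were tested, miR399, which targets the phosphate regulator PHO2, miR827, which targets the SPX-domain protein NLA, and miR2111. On the miRNA scale the 3 members had a median log2 change of 0.49 beside 0.25 over all families, and none was called. In all 3 the mock values lay above the untreated values, as in 13% of all families. The miR2111 values were 149, 182 and 134 CPM in mock leaves and 59.9, 68.9 and 95.8 CPM in untreated leaves, a log2 change of 1.06 (limma, adjusted p = 0.113). The only miR2111 sequence listed was the 3p strand of MIR2111b. For miR399 they were 396, 643 and 427 CPM in mock leaves and 359, 340.1 and 321 CPM in untreated leaves (0.49, limma adjusted p = 0.285). For miR827 they were 687, 672 and 580.5 CPM in mock leaves and 563, 572 and 455 CPM in untreated leaves (0.29, limma adjusted p = 0.598). On the genome scale all 3 rose, as did 61% of all families, with a median of 1.95 beside 1.40 over all families and log2 changes of 2.13 for miR2111 (limma, adjusted p = 0.00194), 1.95 for miR399 (0.00180) and 1.79 for miR827 (0.00268). miR395, which targets ATP sulfurylases and responds to sulfate, had 199, 237 and 223 CPM in mock leaves and 239.6, 224 and 342 CPM in untreated leaves and passed neither test, with a log2 change of -0.27 per miRNA read and 1.19 per genome-matched read (limma, adjusted p = 0.0593).

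Of the 4 families on the silencing-machinery list, 3 were called higher per genome-matched read. The median log2 change of the list was 1.70, beside 61% called higher and 1.40 over all families. miR168, which targets the AGO1 message, had 7372, 11162 and 21486 RPM in the mock libraries, against 3717, 2589 and 3206 RPM in the untreated libraries. The lowest mock library was about 2 times the highest untreated library, and the log2 change was 1.95 ± 0.41 (limma, adjusted p = 0.000235). miR403, which targets AGO2, had 3106, 3748 and 6182 RPM in mock leaves and 932.0, 819.9 and 1243 RPM in untreated leaves (log2 change 2.08, limma adjusted p = 0.000326). miR162, which targets the DICER-LIKE1 message, had 1103, 2036 and 2777 RPM in mock leaves and 535, 689.6 and 822 RPM in untreated leaves (log2 change 1.45, limma adjusted p = 0.00866), a call lost without untreated library 1 (limma, adjusted p = 0.0607, in a range of 0.00221 to 0.0607). On the miRNA scale these 3 changed by 0.37, 0.51 and -0.12 on the log2 scale and none passed. miR838, cut from an intron of the DICER-LIKE1 transcript itself, was listed only in mock library 3, at 13.7 CPM.

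All 11 families of the development list rose per genome-matched read, with a median log2 change of 1.59, beside 61% and 1.40 over all families, and none was called per miRNA read, with a median of 0.02 beside 0.25. miR166, a repressor of the HD-ZIP III leaf-polarity genes, had the highest mean CPM over the 6 libraries. Of the reads counted for miR166, 20.8% are also counted for miR165, so that rank includes shared reads. In RPM miR166 had 8175, 15201 and 18035 in the mock libraries, against 4996, 5006 and 3259 in the untreated libraries (log2 change 1.59, limma adjusted p = 0.000782). Its share of the listed miRNA reads was 15.3%, 21.5% and 13.6% in mock and 18.1%, 19.8% and 12.5% in untreated libraries, which overlapped. miR172, which targets APETALA2-like factors, had 135, 213 and 442 RPM in mock leaves and 40.7, 67.8 and 45.6 RPM in untreated leaves (log2 change 2.20, limma adjusted p = 0.000752). miR156, which targets SPL factors and marks the juvenile phase, had 3639, 3302 and 8884 RPM in mock leaves and 1425, 2936 and 1807 RPM in untreated leaves (log2 change 1.27, limma adjusted p = 0.0102). Its mock and untreated values did not overlap, yet untreated library 2 was close to mock library 2, and the call was lost without untreated library 1 or mock library 3, with an adjusted p of up to 0.0864 by limma. Of the reads counted for miR156, 53.1% are also counted for miR157, and 77.0% of the miR157 reads are counted for miR156. Of the miR165 reads, 99.1% are also counted for miR166. The 11 families are therefore not separate measurements. miR396, which targets growth-regulating factors, had 3642, 4722 and 8659 RPM in mock leaves and 1634, 1063 and 1343 RPM in untreated leaves (log2 change 2.00, limma adjusted p = 0.000326), and miR319, which targets TCP factors, had 175, 255 and 491 RPM in mock leaves and 83.9, 65.9 and 75.8 RPM in untreated leaves (log2 change 1.89, limma adjusted p = 0.00245). Per miRNA read the changes of miR172, miR396 and miR319 were 0.65, 0.42 and 0.33, and none passed. The smallest change on the list, 1.204, was that of miR171, which targets GRAS-domain regulators (limma, adjusted p = 0.0431), and it passed in only 1 of the 6 fits that leave out a library, the one without mock library 1, with an adjusted p of up to 0.131 in the others. Its direction on the miRNA scale was negative (-0.36), as it was for miR156 (-0.30) and for miR165 (-0.34), whose genome-scale call (limma, adjusted p = 0.0224) was lost without untreated library 3 or mock library 2. The values of miR171 and miR172 are not levels of a single strand. The 5p sequence of miR170 and miR171a made up a mean of 66.4% of miR171 reads in mock and 67.9% in untreated libraries. Of the miR171 reads 66.1% are also counted for miR170. The 3p sequence of miR172a and b took a mean of 36.6% of miR172 reads in mock and 38.4% in untreated libraries.

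All 5 auxin-related families rose per genome-matched read, with a median log2 change of 1.82, beside 61% and 1.40 over all families. miR393, which targets the auxin receptors TIR1 and AFB and has a known role in leaf immunity, had 21.8, 18.96 and 71.9 RPM in the mock libraries, against 7.07, 6.21 and 5.62 RPM in the untreated libraries (log2 change 2.14, limma adjusted p = 0.000782). It was also above untreated leaves in every library per miRNA read, with 431, 326 and 503 CPM in mock leaves and 289, 271 and 198 CPM in untreated leaves (log2 change 0.73, limma adjusted p = 0.242). Most of its reads were miR393b-3p, at 78.0%, 88.2% and 70.1% in mock and 77.8%, 65.4% and 80.2% in untreated libraries. miR167, which targets the auxin response factors ARF6 and ARF8, had 2106, 2034 and 5663 RPM in mock leaves and 993, 702 and 785 RPM in untreated leaves (log2 change 1.82, limma adjusted p = 0.00136). miR164, which targets CUC and other NAC factors, had 2267, 3713 and 7655 RPM in mock leaves and 1285, 1217 and 798 RPM in untreated leaves (log2 change 1.90, limma adjusted p = 0.000752). miR390, which starts the TAS3 phased small RNAs with AGO7, had 8854, 11001 and 17839.6 RPM in mock leaves and 5455, 4462 and 4756 RPM in untreated leaves (log2 change 1.30, limma adjusted p = 0.00454), while per miRNA read its change was -0.27. The changes of miR167 and miR164 per miRNA read were 0.25 and 0.32, and neither passed. In untreated leaves miR390 had the higher mean, at 194970 CPM beside 179091 CPM for miR166.

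Of the 10 defence-related families on the list 8 were tested, and all 8 rose per genome-matched read, with a median log2 change of 1.602, beside 61% and 1.40 over all families, and none per miRNA read (median 0.10). miR472, which targets messages of NLR immune receptors, had 65.0, 149 and 178 RPM in mock leaves and 66.0, 53.1 and 41.8 RPM in untreated leaves. Mock library 1 lay within the untreated range, and the log2 change of 1.17 was just past the threshold (limma, adjusted p = 0.0449), with an adjusted p of up to 0.176 when a library was left out. It was lost without any of the untreated libraries, mock library 2 or mock library 3. Its change per miRNA read was -0.39. Both copper-responsive families tested rose per genome-matched read, as did 61% of all families. miR398, which targets copper superoxide dismutases, had 154, 232 and 545 RPM in mock leaves and 75.05, 80.7 and 61.3 RPM in untreated leaves (log2 change 1.89, limma adjusted p = 0.00243), and miR408, which targets laccase and plantacyanin messages, had 126, 231 and 498 RPM in mock leaves and 67.0, 84.4 and 53.7 RPM in untreated leaves (log2 change 1.85, limma adjusted p = 0.00321). Per miRNA read their changes were 0.33 and 0.29, and neither passed. The miR408-5p sequence took 69.0%, 62.9% and 67.8% of the family in mock and 52.9%, 60.2% and 58.9% in untreated libraries, with no overlap. The other lists share members with these. Per genome-matched read all 7 tested triggers of phased small RNAs rose (median log2 change 1.57), as did all 5 families that partner other ARGONAUTE proteins (1.59). So did 6 of 7 families linked to water and salt stress (1.85). Neither family of the sulfate and nitrogen list (0.78) passed, nor did miR163, the 1 tested family linked to secondary metabolism. Each of these lists stands beside 61% and 1.40 over all families.

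**Figure D4:**
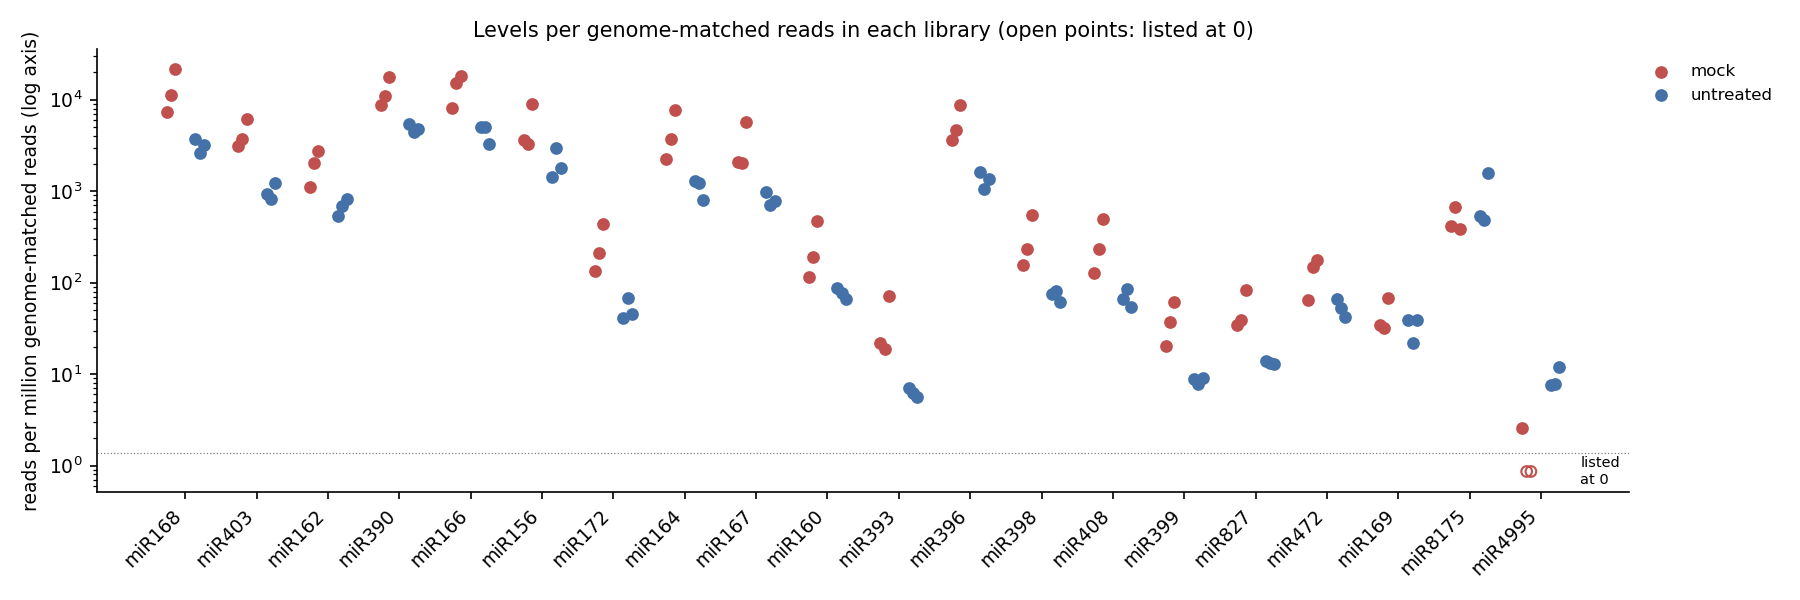
RPM on a log axis of 20 families in the 3 mock and 3 untreated libraries, 1 point a library and open points listed at 0. From miR168 to miR827 the mock points lie above the untreated points, while the groups of miR472, miR169 and miR8175 overlap and miR4995 lies lower in mock leaves.

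Some families were listed in some libraries only. miR163, which targets methyltransferases of secondary metabolism and is 24 nt long in Arabidopsis, had 3125, 1417 and 1660.0 CPM in the mock libraries, against 1925, 1497 and 0 CPM in the untreated libraries. It is listed at 0 in untreated library 3 and at over 1400 CPM in the other 5 libraries, and its log2 change of 3.77 did not pass the test (limma, adjusted p = 0.598) and was 0.13 without that library. miR400, which targets PPR messages, was listed in mock libraries 1 and 3 at 46.7 and 40.5 CPM and at 0 in the other 4 libraries, and its genome-scale change of 1.51 passed (limma, adjusted p = 0.0321) but held in only 1 of the 6 fits that leave out a library, the one without mock library 2, with an adjusted p of up to 0.243 in the others. miR3932 was listed in mock libraries 1 and 3 (39.3 and 23.5 CPM) and in all untreated libraries (61.7, 54.2 and 49.7 CPM). Up to 19.7, 24.01 and 9.23 CPM of a sequence can go unlisted in the mock libraries and up to 15.3, 37.1 and 36.1 CPM in the untreated libraries, and a family with several sequences can hold that amount of each. Of the 24 families not tested, 20 were listed in none of the 6 libraries and 4 had 17 to 21 reads in all.

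A list of families described from roots, pollen or flowers was also read, with no reference tissue beside it. Of the 9 on that list 5 were tested, and their highest level was 417 CPM, for miR823 in mock library 2. That level lies within the range given above for miR393, and miR824 is also on the development list. These levels therefore cannot check the tissue. miR846, which targets jacalin lectin messages and is known from roots, had 108, 74.0 and 121 CPM in the mock libraries, against 41.4, 23.5 and 50.9 CPM in the untreated libraries, with no overlap (log2 change 1.40, limma adjusted p = 0.113). Its genome-scale change of 2.12 passed (limma, adjusted p = 0.00243).

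Among the 296 distinct sequences tested, those with no overlap between groups numbered 28 (9.46%) with mock above and 26 (8.78%) with mock below per miRNA read, and 165 (55.7%) and 6 (2.03%) per genome-matched read. In the test, none (0%) was called higher or lower per miRNA read by limma, with 49 (16.6%) at an unadjusted p under 0.05, while limma-voom called 1 higher and 12 lower. Per genome-matched read 151 (51%) were higher and 2 (0.676%) lower, with 171 (57.8%) at an unadjusted p under 0.05, and both of these were miR4995 sequences from plastid 23S rRNA. Without untreated library 2, untreated library 3 or mock library 3, the number called on that scale was 97, 75 or 76. The family members differed in a few cases. The miR164c sequence, which differs from miR164a and b in its last base as printed above, took 2.15%, 4.19% and 4.02% of the family in mock and 1.76%, 1.91% and 1.94% in untreated libraries, with no overlap. The miR165 sequence took 17.2%, 20.1% and 18.6% of the reads counted for miR166 in mock and 24.01%, 23.6% and 23.9% in untreated libraries, again with no overlap, so the miR166 form with the same seed took the larger part in mock leaves. The main miR399 sequence took 58.7%, 37.0% and 58.9% in mock and 68.6%, 79.7% and 64.9% in untreated libraries. These shares within a family were picked after they had been seen and carry no test.

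The first base and the length of the listed reads were compared as well. Reads that start with U, the first base that AGO1 prefers, made up 78.0%, 76.9% and 81.4% in mock and 73.8%, 74.3% and 71.6% in untreated libraries, with no overlap (exact two-sided permutation p = 0.1, adjusted 0.18 over 9 measures). Reads 18 or 19 nt long made up 1.07%, 1.27% and 1.05% in mock and 1.44%, 1.41% and 4.69% in untreated libraries, where untreated library 3 stands apart (exact permutation p = 0.1, adjusted 0.18). The difference was -1.38 percentage points, and -0.30 without that library. Reads of 21 nt, the usual length of an Arabidopsis miRNA, made up 84.8%, 88.5% and 83.4% in mock and 85.9%, 82.2% and 78.5% in untreated libraries, which overlapped.

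The Alternaria libraries stand beside these values for the 4 families called on the miRNA scale, and their comparisons share the mock and the untreated libraries used above. After Alternaria, miR169 had 180.1, 187 and 171 CPM, a log2 change of -1.64 against mock (limma, adjusted p = 0.000851) and of -2.83 against untreated leaves (3.2e-06). miR6173 had 79.0, 84.1 and 58.6 CPM and miR5139 179, 206 and 155 CPM after Alternaria. Neither differed from mock past the threshold (limma, adjusted p = 0.560 and 0.844), and both were below untreated leaves (0.000689 and 0.00773). miR4995 was listed at 0 in all 3 Alternaria libraries.

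In RNA bound to AGO1 from mock and untreated leaves, 0 of 79 families were called between mock and untreated by limma, with 5 at an unadjusted p under 0.05. Of the 9 rRNA, tRNA and snoRNA families, 8 were listed at 0 in all 6 of those AGO1 libraries, and miR6478 was the exception. Of the other 68 families 8 were at 0 there, namely miR2111, miR3434, miR5020, miR5642, miR5654, miR829, miR852 and miR866. Those AGO1 libraries held 12998921 to 20317660 miRNA reads each, far more than the total libraries. The authors' deposited table for this comparison calls 1 of 101 families at an adjusted p under 0.05, miR4995 with 4.48e-07, and gives 0.106 for miR169 and miR6173. Its log2 values run untreated over mock, so in the authors' deposited table miR169 has a positive value of 1.25.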

How the data were processed

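The authors trimmed reads with cutadapt after FastQC and compared groups with DESeq 1.2 (DESeq2 is also named), with build TAIR10, per the submitters' processing notes. The deposited table holds, per the file headers, read numbers of sequences of 18 to 24 nt profiled with miRProf, in raw and normalised columns, and read totals at each filtering step. Its normalised column equals raw reads per 1000000 genome-matched reads in all 17928 values (within 0.005 or 0.5%), and no sequence is listed under 15 reads in a run. The authors' deposited comparison table holds group means of normalised read numbers (signal), their ratio as a fold change, its log2 and p-values.

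The 2 runs of a library were summed and a sequence was counted in each family that lists it. Families and sequences were kept by a filter of 10 reads at the median depth, in at least as many libraries as a group holds, and 15 in all. It was applied over the 9 total libraries, so a family read mainly after Alternaria could be kept. An example is miR5651. In a fit of 18 libraries it had 0, 0 and 3.77 CPM in mock, 0 in every untreated and 21.2, 13.5 and 40.2 CPM in Alternaria total libraries. Values were log2(CPM + 1) with TMM factors (trims 0.3 and 0.05), or log2(RPM + 1), fitted with limma 3.58.1 (trend and robust options) in R 4.3.3 over the 9 total libraries, including the Alternaria ones, with Benjamini-Hochberg adjustment over all features tested. A fold change on this scale understates that of a low family listed in every library, and for a family listed at 0 in some libraries it can exceed the fold of the group means. Single measures were compared with exact two-sided permutation tests (scipy 1.17.1). The method was also run on simulated read numbers, on the miRNA scale only. These had no listing limit, the same spread for all features and no shift in the miRNA share, so they do not test the calls above. Where a result rests on few reads, the listing limits bound only the reads that can go unlisted and do not cover counting error. Library depth was 753927 to 3034481 miRNA reads. Coordinates are exact matches to a RefSeq copy of the TAIR10 genome.

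The families named are those past a threshold (up to 10 a direction and scale), the 5 most abundant, up to 4 of each list by p, and those with no overlap and a 2-fold difference. The comparison and the lists were chosen with earlier results of these data known, and the rRNA, tRNA and snoRNA classes were drawn after the sequences had been seen. Other scalings, pseudocounts, filters, runs, fits and left-out libraries were tried. The planned count models were not fitted: the table mixes sequence lines with family lines that hold no numbers, which kept its unit from being accepted as counts.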

Additional observations from a re-analysis of the deposited data

Results flagged for a closer look

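The mock effect on miR4995 differed between RNA bound to AGO1 and total small RNA. The interaction was 6.21 ± 1.28 on the log2 scale (SE; limma over 18 libraries, adjusted p = 0.0187), the only one of 95 families past the threshold, with 14 at an unadjusted p under 0.05. In that fit miR4995 had 30.3, 0 and 0 CPM in mock and 201, 194 and 323 CPM in untreated total libraries, and it was listed at 0 in all 9 AGO1 libraries. The difference is therefore the fall in total libraries set against a family that the AGO1 libraries do not list. Without untreated library 3 no family passed.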

How the results depend on the processing

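Calls on the miRNA scale depended on single libraries and on how listed zeros were treated, and family calls on the genome scale depended on them less. The genome-scale calls all carry the library-wide difference in miRNA share, so they are not independent of one another. Over families on the miRNA scale, 4 were called, all lower in mock, against 7 with a pseudocount of 5 (3 higher, 4 lower), 0 with listed zeros at 14 reads a run, 0 without trend and robust options, 1 without families lacking a MIR locus, 11 in a fit of all 18 libraries (5 higher, 6 lower), and 0 to 8 when a library was left out (8 without untreated library 1, 4 higher and 4 lower, and 0 without untreated library 3). Over sequences on the miRNA scale, where 0 were called, there were 13 with limma-voom, 11 with a pseudocount of 5, 15 with listed zeros at 14 reads a run, 5 in a fit of the 6 libraries alone, 2 without trend and robust options, and 0 to 20 when a library was left out. On the genome scale 153 sequences were called, and 75 to 170 when a library was left out; the family count of 48 ranged from 33 to 48 in those fits. The AGO1 interaction was called in 0 to 6 families there.

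The genome-scale change of miR4995 turned to 0.14 with listed zeros at 14 reads a run. The miR166 share of listed reads, near 0 in difference, turned to -0.0276 percentage points without families lacking a MIR locus and ranged from -2.31 to 1.64 when a library was left out. The cause was not tested. Weak genome-scale calls also ended elsewhere: miR171 and miR472 with no filter, with the 6 libraries alone and without trend and robust options, miR472 and miR400 with a pseudocount of 5, miR400 with run 2 only, and miR165 without trend and robust options. Same-numbered replicates did not pair (correlations of -0.0790, 0.292 and -0.102), and not every library correlated best with its own number. With the replicate block 3 families were called on the miRNA scale and 49 on the genome scale, with 1 and 160 sequences, miR5139 lost its call, and the miRNA share difference stayed at 5.91. DESeq2 and edgeR were not run. Depth limits low families: up to 37.1 CPM of a sequence can go unlisted.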
